A study of Mus musculus with 9 samples.

Results

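Endothelial cells enriched for intramyocardial arteries and capillaries were compared with endothelial cells enriched for subepicardial veins, both sorted simultaneously from ventricles of mouse embryos at E17.5. The comparison rested on 6 of the 9 libraries of the series, 3 arterial and 3 venous, and on the 15404 genes that passed a filter for low counts out of 41214 features in the table. The other 3 libraries came from an endocardial gate and were left out of the fit. All embryos carried 1 genotype, with the hemizygous transgenes Nes-Gfp(Tg/0) and Nes-CreER(Tg/0) over the reporter allele R26 (tom/+), and 0.1 ug of tamoxifen was given at E15.5. The labels do not say per what weight or animal that amount is. In these embryos sequences of the nestin gene drive both a green reporter and an inducible Cre, and Cre turns on the red Tomato reporter from the R26 locus for good. Cells of both populations were dapi-, Ter119- and CD45-, which leaves out dead, red and white blood cells, and were CD31+, GFP+ and low for endomucin. The arterial gate then took Tomato+ cells, and the venous gate took Tomato- cells with low GFP. Arterial and venous cells were thus set apart by activity of the nestin transgenes and not by an arterial or venous protein. The labels do not say how many embryos went into a library or whether replicates came from separate litters, so the p-values speak only of how far these libraries spread, and that spread may be technical. In bulk RNA of this kind, fewer cells of a type and less RNA per cell cannot be told apart.

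Arteries and veins differ in their endothelium before and beyond any difference in blood flow. In arterial endothelial cells VEGF and Notch signals, with SoxF and other transcription factors, maintain a program that includes ephrin-B2, the chemokine receptor CXCR4 and the gap junction proteins connexin 40 and connexin 37. In venous cells the nuclear receptor COUP-TFII, the product of Nr2f2, holds that program down. Coronary vessels of the mouse grow from sinus venosus and endocardial sources, and the veins lie under the epicardium, with the arteries deeper in the muscle.

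The 6 libraries held between 13171313 and 19474419 counts, with 19610 to 21221 genes above 0 in the arterial and 18462 to 19755 in the venous ones. Mitochondrially encoded genes took 8.06% to 9.01% of counts in arterial and 10.5% to 11.3% in venous libraries, without overlap. Not every library sat with its own group. The log2 levels of arterial replicate 2 correlated at 0.909 to 0.926 with the venous libraries and at 0.884 and 0.903 with the other arterial libraries, while the venous libraries correlated at 0.923 to 0.944 among themselves. On the first principal component (37.0% of the variance) arterial replicate 3 lay at -116 and the other libraries between -35.9 and 67.1. Results were therefore refitted without each library in turn. Where a named gene lost its call in such a fit, the libraries on which the call rested are given beside it, and for the other called genes named here the call held in all 6 of these fits. Levels are in CPM, the usual unit of counts scaled to library depth, after TMM scaling, and are compared between libraries for the same gene. Fold changes are log2, arterial minus venous, with a standard error (SE).

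Neither Emcn nor the endogenous Nes gene passed the test, which does not show their levels to be equal. The 95% intervals of their log2 fold changes were -0.67 to 0.05 and -0.17 to 0.62. Emcn, which encodes endomucin, had 244, 196 and 172 CPM in arterial replicates 1 to 3 and 269, 234 and 256 in venous replicates 1 to 3, and was not called (log2 fold change -0.31 ± 0.17 SE, adjusted p = 0.534). Nes had 547, 528 and 527 against 356, 421 and 591 CPM (0.23 ± 0.18, adjusted p = 0.737). Transcripts of the transgenes were not analysed here.

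Of the 15404 genes, 1731 had an unadjusted p under 0.05 in edgeR. Called different were 196 (1.27%), at a Benjamini-Hochberg adjusted p under 0.05. Among them 86 genes (0.558% of all tested) were higher in arterial and 110 (0.714%) were lower in arterial libraries. These shares are the background for every count of list members below. The falls were the larger changes. Genes lower in arterial libraries differed by a median of 4.85-fold (quartiles 3.09 and 8.27) and 67 of them by over 4-fold, whereas the higher genes differed by a median of 2.70-fold (quartiles 2.08 and 4.30) and 24 by over 4-fold. The genes called higher were often abundant, and 34 of the 86 reached a mean of 100 CPM in arterial libraries against 20 of the 110 lower genes in venous libraries. In all 196 called genes the 3 arterial and 3 venous values did not overlap, as in 17.7% of all tested genes. It follows that their direction was the same within each of the 3 numbered batches, which held for 35.5% of all tested genes. The number of calls depended on the libraries. It was 110 without venous replicate 1, 123 without venous replicate 2, 98 without venous replicate 3 and 145 to 232 without an arterial library, and 77 genes (25 higher and 52 lower) were called in all 6 such fits.

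**Figure D1:**
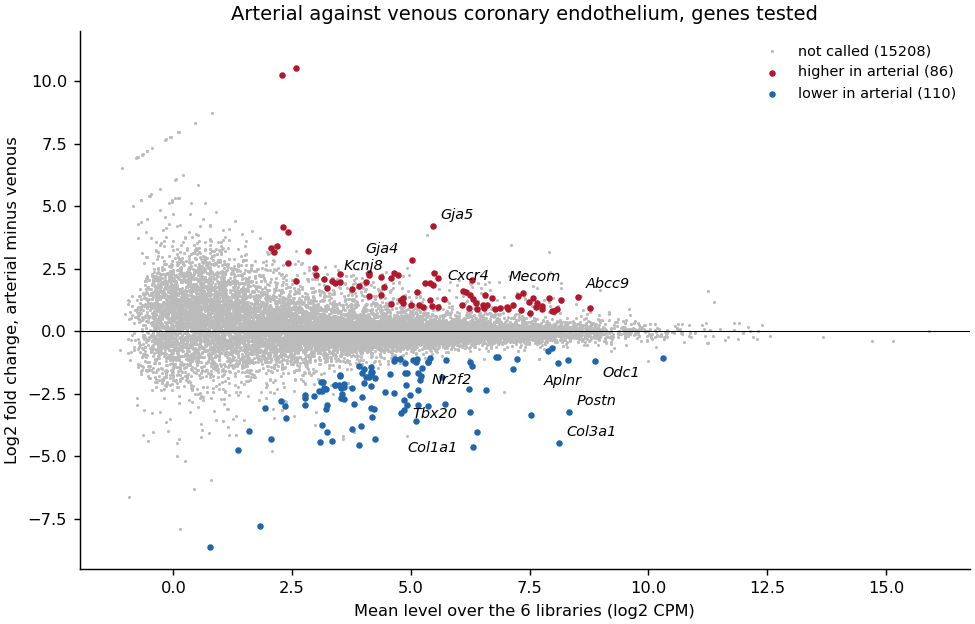
Log2 fold change, arterial minus venous, against the mean level over the 6 libraries (log2 CPM) for the 15404 genes tested. Each point is a gene, red points are the 86 genes called higher in arterial libraries, blue points the 110 called lower and grey points the rest, and the called falls reach further from 0 than most of the called rises.

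Among genes called higher at a mean log2 CPM of at least 4, the connexins of arterial endothelium had the largest rises. Gja5 (ENSMUSG00000057123; GRCm38 chromosome 3, 96904693 to 97077416, plus strand) encodes connexin 40, a gap junction channel of arterial endothelium and of the conduction system. It had 60.1, 86.6 and 104 CPM in arterial replicates 1 to 3 and 2.74, 5.97 and 4.71 CPM in venous replicates 1 to 3. Each arterial value was far above each venous value, and the difference was 18.7-fold (log2 4.22 ± 0.32 SE, adjusted p = 6.38e-05). Gja4 (ENSMUSG00000050234; chromosome 4, 127311421 to 127314039, minus strand) encodes connexin 37. It had 36.0, 69.6 and 65.1 CPM in arterial and 5.90, 8.92 and 8.63 in venous libraries, again without overlap (log2 2.86 ± 0.30, adjusted p = 0.000559). Gja1, which encodes the widely expressed connexin 43, rose less, with 182, 156 and 173 CPM against 89.3, 96.1 and 78.5 (log2 0.95 ± 0.16, adjusted p = 0.0117), and this call was lost without venous replicate 1 (adjusted p = 0.0552) or 3 (0.114).

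The 250 bases before the RefSeq start of 4 genes at the ends of the comparison are shown because 2 of them are the most clearly arterial connexins and the others are the venous regulator and a collagen that fell. Sequences are RefSeq's for GRCm38.p6, read 5′ to 3′ on the strand of the gene, and capitals mark a match to a motif searched on both strands.
Gja5, chr3:97032152-97032401, plus strand: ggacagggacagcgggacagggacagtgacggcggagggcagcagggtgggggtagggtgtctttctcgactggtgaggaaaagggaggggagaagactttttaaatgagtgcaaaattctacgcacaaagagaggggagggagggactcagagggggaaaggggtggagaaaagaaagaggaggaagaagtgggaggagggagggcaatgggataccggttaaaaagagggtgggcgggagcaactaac
Gja4, chr4:127314040-127314289, minus strand: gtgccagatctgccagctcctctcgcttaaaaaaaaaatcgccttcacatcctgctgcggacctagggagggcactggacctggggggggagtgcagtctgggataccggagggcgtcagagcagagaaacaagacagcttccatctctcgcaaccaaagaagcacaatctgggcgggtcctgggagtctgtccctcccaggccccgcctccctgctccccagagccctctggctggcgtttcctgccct
Nr2f2, chr7:70366747-70366996, minus strand: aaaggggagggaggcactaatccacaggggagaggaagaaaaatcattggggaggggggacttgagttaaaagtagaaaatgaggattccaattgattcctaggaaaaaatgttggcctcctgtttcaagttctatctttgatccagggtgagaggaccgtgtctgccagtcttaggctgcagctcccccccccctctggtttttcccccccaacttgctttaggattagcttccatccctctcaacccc
Col3a1, chr1:45311288-45311537, plus strand: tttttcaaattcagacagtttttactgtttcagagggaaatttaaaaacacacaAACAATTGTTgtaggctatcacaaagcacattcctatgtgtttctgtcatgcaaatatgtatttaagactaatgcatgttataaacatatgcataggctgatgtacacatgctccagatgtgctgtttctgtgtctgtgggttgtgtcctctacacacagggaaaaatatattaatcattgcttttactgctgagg
In GENCODE the Gja5 stretch lies in an intron of a longer Gja5 transcript, the Nr2f2 stretch overlaps an exon of the non-coding gene B130024G19Rik, and the Gja4 and Col3a1 stretches overlap no annotated gene. The motifs searched were TGGGAA (bound by RBPJ, the Notch effector), AGGTCA (a core element of nuclear receptors such as COUP-TFII), AACAAT (SOX factors) and GGAAGT (ETS factors). The fifth was a core element of the GATA family of factors, with the letters AGATAA. The capitals in Col3a1 are a pair of overlapping AACAAT matches on opposite strands, 196 and 192 bases before the start, and the other 3 stretches held none of the 5 motifs.

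Motif shares were counted over the called genes with an entry in the promoter table, 68 of the 86 higher and 76 of the 110 lower genes. TGGGAA was present in 27.9% of the higher and 15.8% of the lower genes, beside 21.5% of all 27018 promoters of the same length. AACAAT was present in 2.94% and 5.26% beside 9.65%, AGGTCA in 8.82% and 11.8% beside 13.8%, GGAAGT in 11.8% and 9.21% beside 20.0%, and AGATAA in 8.82% and 3.95% beside 10.3%. These shares are descriptions and were not tested.

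Among 29 tested markers of arterial endothelium 12 rose and none fell, with 17 not called. Their median log2 fold change was 0.90, against 0.02 over all genes tested, and 8 to 14 rose when any 1 library was left out. DESeq2 called 16 higher and 1 lower. The chemokine receptor gene Cxcr4 (ENSMUSG00000045382; chromosome 1, 128588199 to 128592293, minus strand) had 63.9, 76.6 and 90.4 CPM in arterial and 20.3, 19.2 and 13.8 in venous libraries. Its lowest arterial value was over 3 times the highest venous one, and the log2 fold change was 2.12 ± 0.22 (adjusted p = 0.000609). Its ligand gene Cxcl12 had 137, 277 and 343 CPM against 10.8, 29.1 and 29.6. These values did not overlap and differed by log2 3.44 ± 0.54, yet the gene missed the threshold (adjusted p = 0.0577). Over the alternatives its adjusted p ran from 3.75e-07 in DESeq2 and 3.56e-06 with the replicate number as a block to 0.284 without venous replicate 2. Sema3g, a secreted semaphorin of arterial endothelium, had 64.9, 81.7 and 78.3 CPM against 9.54, 17.8 and 17.4 (log2 2.33 ± 0.26, adjusted p = 0.000687, but 0.185 with all 9 libraries in the fit). Vegfc, a ligand of VEGF receptors 2 and 3 best known from lymphatic growth, had 75.8, 80.3 and 52.2 CPM against 16.7, 26.9 and 13.9 (log2 1.86 ± 0.27, adjusted p = 0.00518).

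Transcription factor genes moved in both directions. Of 71 tested endothelial and cardiac factors 3 were higher and 3 lower, beside 0.558% and 0.714% of all tested genes. Mecom, which encodes the zinc finger factor EVI1, had 282, 272 and 259 CPM in arterial and 114, 100 and 107 in venous libraries, with little spread in either group (log2 1.34 ± 0.15, adjusted p = 0.000687). Prdm16, of the same factor family, had 16.9, 19.5 and 13.8 against 3.75, 4.34 and 4.97 CPM (log2 1.94 ± 0.33, adjusted p = 0.0138), and was lost without arterial replicate 2 or any venous library (adjusted p up to 0.0648). The third was Hey1, a repressor that Notch induces. Meox1 and the 2 factors described below, Nr2f2 and Tbx20, fell. Meox1 had 17.4, 20.1 and 23.2 CPM against 32.3, 52.7 and 59.0 (log2 -1.25 ± 0.26, adjusted p = 0.0367) and kept its call only without venous replicate 1, with adjusted p up to 0.209 in the other 5 fits. The SoxF gene Sox17 did not pass the test, at 63.6, 53.4 and 64.8 against 46.1, 36.6 and 37.6 CPM (log2 0.60 ± 0.19, adjusted p = 0.212).

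Of 28 tested genes of the Notch pathway 2 rose, the ligand gene Jag1 and the target Hey1, and 1 fell. The median was 0.15, and over all tested genes 0.558% rose and 0.714% fell. Jag1 had 76.9, 120 and 125 CPM in arterial and 33.7, 42.7 and 32.3 in venous libraries (log2 1.57 ± 0.22, adjusted p = 0.00371). Hey1 had 85.4, 121 and 103 CPM against 26.7, 43.9 and 30.1 (log2 1.62 ± 0.23, adjusted p = 0.00354). In both genes all 3 arterial values stood above all venous ones. Dll4, the ligand of arterial and tip cells, had 76.3, 145 and 147 CPM against 52.0, 88.0 and 54.6, which overlapped and was not called (log2 0.92 ± 0.28, adjusted p = 0.211, but 0.0344 in DESeq2). Notch1 and Notch4 were not called, with log2 fold changes of 0.18 ± 0.28 and 0.18 ± 0.22, nor was Hey2 (-0.86 ± 0.46). The receptor gene Notch2 had 3.06, 3.85 and 8.61 CPM in arterial and 14.7, 16.0 and 15.6 in venous libraries. These values did not overlap, but the difference was not called (log2 -1.58 ± 0.42, adjusted p = 0.117), whereas it was in DESeq2 (0.0227) and without arterial replicate 3 (0.0197). Dlk1, a non-canonical Notch ligand and imprinted gene, was the member that fell, from 29.9, 70.7 and 55.7 CPM in venous to 5.07, 6.81 and 5.49 in arterial libraries (log2 -3.16 ± 0.33, adjusted p = 0.000544).

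Ephrin and axon guidance genes, which keep arterial and venous cells apart and steer vessel branches, held members that rose and members that fell. Of 38 tested genes 5 were higher and 4 lower, with a median of -0.08, beside 0.558% and 0.714% of all tested genes. The higher count was 1 without venous replicate 3 and 3 without arterial replicate 2, arterial replicate 3 or venous replicate 1. The lower count was 2 without venous replicate 1. Efnb2, which encodes ephrin-B2, had 348, 348 and 355 CPM in arterial and 200, 175 and 187 in venous libraries. The groups lay apart with almost no spread among the arterial libraries (log2 0.90 ± 0.14, adjusted p = 0.00721), and the call was lost without venous replicate 2 (adjusted p = 0.0612) or 3 (0.0626). Its receptor gene Ephb4, a venous marker, was not called, at 36.0, 62.9 and 58.7 CPM against 52.9, 129 and 64.2 (log2 -0.64 ± 0.35, adjusted p = 0.557). Epha4, another ephrin receptor, had 58.9, 64.3 and 56.1 CPM against 27.0, 25.9 and 22.8 (log2 1.24 ± 0.19, adjusted p = 0.00586; 0.0682 without venous replicate 3). Unc5b, a netrin receptor of arterial endothelium, rose by log2 1.40 ± 0.26 (adjusted p = 0.0246) and was lost without arterial replicate 2 or 3 or venous replicate 1 or 3 (adjusted p up to 0.196). On the venous side, Plxnc1, the receptor of semaphorin 7A, had 43.9, 36.7 and 29.4 CPM in venous and 5.60, 7.11 and 7.54 in arterial libraries (log2 -2.44 ± 0.27, adjusted p = 0.000699). The gene of that ligand, Sema7a, went the other way, at 92.1, 124 and 117 CPM in arterial and 32.4, 54.5 and 51.4 in venous libraries (log2 1.27 ± 0.22, adjusted p = 0.0145). The Sema7a call was lost without arterial replicate 2 or 3 or venous replicate 1 or 3, at adjusted p up to 0.0763.

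**Figure D2:**
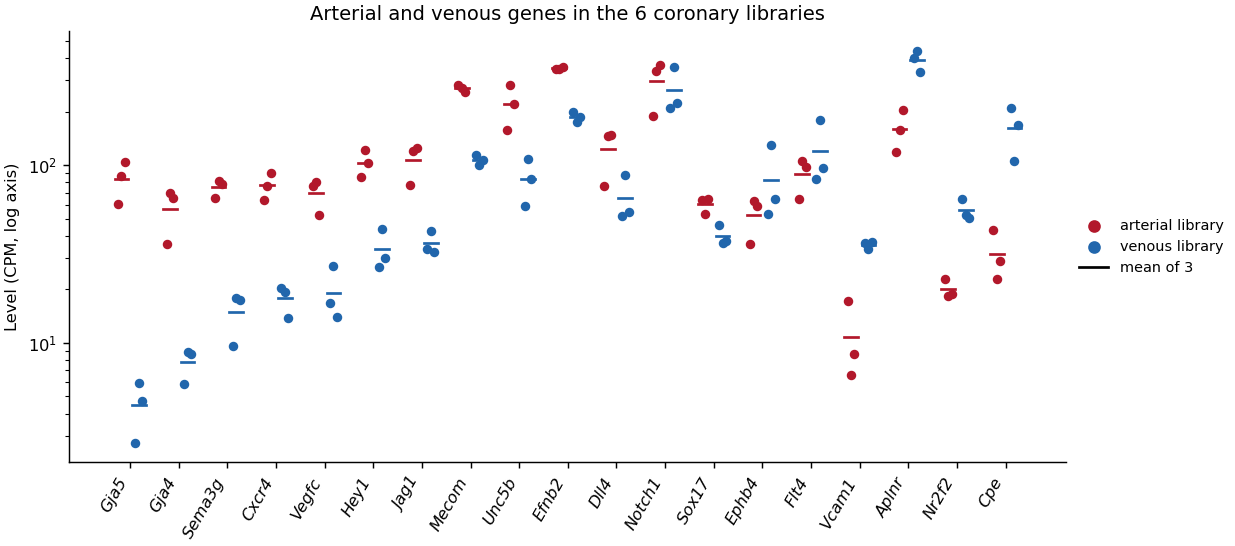
Level of 19 arterial and venous genes (CPM, log axis) in each of the 3 arterial libraries (red points) and 3 venous libraries (blue points), with bars at the mean of each group. From Gja5 to Efnb2 the points of the groups lie apart with arterial on top, from Vcam1 to Cpe they lie apart with venous on top, and Dll4, Notch1, Ephb4 and Flt4 overlap.

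Of 46 tested ion channel genes 5 rose and none fell, beside 0.558% and 0.714% of all tested genes. The list median was -0.01, and those that rose were the 3 connexins above, Kcnj8 and Clic5. Without venous replicate 1 the count was 3. Clic5, an intracellular chloride channel protein, was lost without arterial replicate 2 or 3 or venous replicate 1 (adjusted p up to 0.0695). Kcnj8 encodes Kir6.1, the pore of the vascular ATP-sensitive potassium channel, and had 40.1, 53.8 and 36.9 CPM in arterial and 9.71, 7.23 and 10.5 in venous libraries (log2 2.25 ± 0.26, adjusted p = 0.000922, but 0.265 with all 9 libraries in the fit). Abcc9 encodes SUR2, the regulatory subunit of the same channel, and had 420, 692 and 480 CPM against 175, 266 and 171 (log2 1.38 ± 0.23, adjusted p = 0.0122). The Abcc9 call was lost without venous replicate 1 (adjusted p = 0.0608) or 3 (0.0992). Both subunits were higher in every arterial library than in any venous one, and their genes are neighbours on chromosome 6 (Kcnj8 at 142564837 to 142571614 and Abcc9 at 142587862 to 142702315, 16248 bases apart).

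Kcnj8 and Abcc9 are also known from pericytes, and with Rgs5 they were the 3 of 14 tested mural cell markers that rose. The summed level of the mural list was 1060 to 1550 CPM in arterial and 629 to 838 in venous libraries, and the list median was 0.24. Without venous replicate 1 or 3 a single member rose, and Rgs5 was lost also without arterial replicate 2 or 3 (adjusted p up to 0.102). The defining mural genes Pdgfrb, Cspg4, Acta2 and Myh11 were not called. Myh11, smooth muscle myosin, had 5.45, 5.51 and 3.89 CPM in arterial and 0.119, 2.14 and 0.523 in venous libraries, without overlap (log2 2.41 ± 0.90, adjusted p = 0.314). The other 3 overlapped between the groups. Pdgfrb had 6.71, 12.9 and 26.1 CPM in arterial and 11.4, 10.6 and 6.54 in venous libraries, Cspg4 lay between 2.69 and 7.99, and Acta2 between 5.22 and 9.29, over all 6 libraries. With the endocardial libraries scaled alongside, the mean level of Abcc9 was 517 CPM for arterial, 201 for venous and 48.8 for endocardial libraries.

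Of 27 tested lipid mediator enzymes 2 rose and 2 fell, at a median of -0.16, beside 0.558% and 0.714% of all tested genes. Enpp2, which encodes autotaxin, the secreted enzyme that makes lysophosphatidic acid, had 44.0, 45.4 and 34.5 CPM in arterial and 8.17, 10.4 and 6.17 in venous libraries (log2 2.32 ± 0.27, adjusted p = 0.000967). Lpar4, a receptor for that lipid, had 676, 531 and 514 CPM against 268, 280 and 346 (log2 0.94 ± 0.17, adjusted p = 0.0152), and was lost without venous replicate 1 (adjusted p = 0.0860) or 2 (0.0809). Ligand-making enzyme and receptor were thus both higher in all 3 arterial libraries than in any venous one. Alox12, a lipoxygenase that acts on arachidonic acid, had 30.1, 45.8 and 40.5 CPM against 7.21, 8.67 and 10.9 (log2 2.12 ± 0.27, adjusted p = 0.00188). In contrast, Ptgs1, which encodes cyclooxygenase 1 and acts on the same fatty acid, had 12.9, 11.2 and 20.7 CPM in arterial and 52.3, 64.0 and 57.3 in venous libraries (log2 -1.95 ± 0.26, adjusted p = 0.00216). The other enzyme that fell was Aldh1a2, given with the epicardial markers.

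St8sia6, a sialyltransferase, had 117, 131 and 125 CPM in arterial and 24.6, 35.8 and 29.9 in venous libraries (log2 2.05 ± 0.19, adjusted p = 0.000234). It was the 1 of 36 tested glycan enzymes that rose, and 2 fell, beside 0.558% and 0.714% of all tested genes. Among the genes with the largest rises or largest CPM differences were also 2 kinases and a myosin. Tec, a cytoplasmic tyrosine kinase, had 26.5, 39.1 and 35.2 CPM against 7.21, 6.03 and 9.10 (log2 2.17 ± 0.28, adjusted p = 0.00198). Map4k3, a serine/threonine kinase, had 363, 383 and 279 CPM against 155, 130 and 120 (log2 1.34 ± 0.17, adjusted p = 0.00216). Myo10, the unconventional myosin of filopodia tips, had 381, 400 and 418 CPM against 145, 188 and 170 (log2 1.25 ± 0.15, adjusted p = 0.00121). All 3 genes had every arterial value above every venous one. A pair of surface protein genes had very even levels within groups. They were Cd44, the hyaluronan receptor, at 150, 145 and 152 against 61.3, 56.4 and 59.0 CPM (log2 1.34 ± 0.15, adjusted p = 0.000922), and the glypican Gpc4 at 65.3, 62.8 and 72.3 against 19.9, 16.5 and 16.6 (log2 1.92 ± 0.19, adjusted p = 0.000489).

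On the venous side, 5 of 17 tested venous markers were lower in arterial libraries, 12 were not called and none was higher, with a median of -0.64. The count was 3 without arterial replicate 2 or 3 or without venous replicate 1 or 3. Nr2f2 (ENSMUSG00000030551; chromosome 7, 70351944 to 70366735, minus strand) had 64.1, 52.5 and 50.1 CPM in venous and 22.8, 18.4 and 18.8 in arterial libraries. No arterial value reached the lowest venous one (log2 -1.48 ± 0.20, adjusted p = 0.00351). Aplnr (ENSMUSG00000044338; chromosome 2, 85136225 to 85139923, plus strand), the apelin receptor of venous and sprouting coronary endothelium, had 400, 439 and 332 CPM in venous and 119, 157 and 203 in arterial libraries (log2 -1.29 ± 0.20, adjusted p = 0.00721). Within the numbered batches the difference was log2 -1.74, -1.48 and -0.71, the smallest in the batch of arterial replicate 3, which had the highest arterial value. The ligand gene Apln, at 127, 128 and 140 CPM in arterial and 154, 216 and 246 in venous libraries, was not called (log2 -0.64 ± 0.18, adjusted p = 0.160, but 0.0468 in DESeq2). Cpe, which encodes carboxypeptidase E, a processing enzyme of peptide hormones, had 209, 106 and 168 CPM in venous and 42.9, 23.0 and 28.7 in arterial libraries (log2 -2.35 ± 0.29, adjusted p = 0.00279). Vcam1, a leukocyte adhesion molecule, was called with 36.5, 33.9 and 36.7 against 17.2, 6.57 and 8.61 CPM (log2 -1.73 ± 0.34, adjusted p = 0.0269) and was lost without arterial replicate 2 or 3 or venous replicate 1 or 3 (adjusted p up to 0.0886). The fifth called marker, Plvap, had 13.2, 7.98 and 5.02 CPM in venous and 1.72, 1.13 and 0.381 in arterial libraries (log2 -3.01 ± 0.64, adjusted p = 0.0433). Its call held only without arterial replicate 1, with adjusted p up to 0.248 in the other 5 fits. It was also lost with all 9 libraries and with a minimum count of 30. Plvap is counted again among the endocardial markers that fell. Selp, an adhesion molecule of veins, lay at or below 4.65 CPM in all 6 libraries.

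Receptors and growth factors moved both ways, and most were not called, as among all tested genes, of which 1.27% were called. Of 45 tested G protein-coupled receptors 2 rose and 3 fell, of 40 secreted growth factors and cytokines 1 rose and 2 fell, and of 28 receptor tyrosine kinases 1 rose and 1 fell. Gpr182, an atypical chemokine receptor, had 99.8, 106 and 116 CPM in venous and 47.3, 37.4 and 50.7 in arterial libraries (log2 -1.25 ± 0.18, adjusted p = 0.00488). Igf1, insulin-like growth factor 1, had 250, 174 and 200 CPM against 102, 59.2 and 59.8 (log2 -1.50 ± 0.23, adjusted p = 0.00779). Igfbp5, which binds that factor, had 436, 483 and 396 CPM against 213, 203 and 176 (log2 -1.15 ± 0.15, adjusted p = 0.00237). A second binding protein went the other way. Igfbp3 had 256, 258 and 223 CPM in arterial and 138, 110 and 82.1 in venous libraries (log2 1.16 ± 0.19, adjusted p = 0.0117; 0.0647 without venous replicate 3). Apoe, the lipid carrier apolipoprotein E, had 28.8, 30.7 and 27.3 CPM in venous and 6.86, 6.04 and 6.09 in arterial libraries, with little spread in either group (log2 -2.19 ± 0.26, adjusted p = 0.00107).

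Fibrillar and beaded-filament collagens fell steeply, and Col1a1 and Col3a1 had the largest falls of all genes called at a mean log2 CPM of at least 4. The basement membrane collagens Col4a1, Col4a2 and Col18a1 did not pass the test. Of 27 tested collagen chains 10 were lower in arterial libraries, none was higher and 17 were not called, with a median of -0.65, and 9 or 10 fell whichever library was left out. DESeq2 called 13 lower and 1 higher. Col1a1 (ENSMUSG00000001506; chromosome 11, 94936224 to 94953042, plus strand), which encodes a type I collagen chain, had 127, 183 and 145 CPM in venous and 8.95, 5.39 and 4.19 in arterial libraries. Col3a1 (ENSMUSG00000026043; chromosome 1, 45311538 to 45349706, plus strand), the chain of type III collagen whose upstream bases are printed above, had 551, 591 and 460 CPM against 34.6, 20.0 and 17.0. Even the lowest venous value was over 10 times the highest arterial one for both genes, and they fell by 4.62 ± 0.30 and by 4.48 ± 0.28 on the log2 scale (adjusted p = 1.75e-05 for each). Col1a2 and Col5a1 followed, with log2 fold changes of -4.04 ± 0.27 and -2.92 ± 0.24. All 3 tested main chains of the beaded-filament collagen VI fell, Col6a1 by 2.48, Col6a2 by 2.09 and Col6a3 by 2.96 on the log2 scale. By contrast Col4a1, of the basement membrane, had 2960, 3940 and 3890 CPM in arterial and 2440, 3970 and 4140 in venous libraries (log2 0.03, 95% interval -0.41 to 0.47). Col4a2 had a wider interval (log2 -0.08, interval -0.83 to 0.68), and Col18a1 was not called either (0.47, interval -0.01 to 0.96).

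Of 53 tested glycoproteins, proteoglycans and elastic fibre genes 11 fell and 1 rose, at a median of -0.55, and 8 to 11 fell when a library was left out. Postn, which encodes periostin, a matrix protein of valves and fibroblasts, had 618, 582 and 547 CPM in venous and 55.7, 57.7 and 72.9 in arterial libraries. It had the lowest adjusted p of the comparison (log2 -3.23 ± 0.17, adjusted p = 3.70e-06). Vcan, the large proteoglycan versican, had 443, 250 and 309 CPM against 45.8, 31.4 and 21.9 (log2 -3.34 ± 0.31, adjusted p = 0.000698). Bgn, the small proteoglycan biglycan, had 116, 113 and 144 CPM against 24.2, 20.0 and 31.6 (log2 -2.30 ± 0.21, adjusted p = 0.000234). In these 3 genes too, all venous values stood far above all arterial ones. Lama4 and Nid1, of the basement membrane, were not called. Lama4, a laminin chain of endothelium, had a log2 fold change of -0.04 (95% interval -0.36 to 0.29) and Nid1, nidogen 1, had -0.16 (-0.46 to 0.14), both intervals within 2-fold. The 1 gene that rose was a laminin chain, Lama3, with 20.9, 38.6 and 27.0 CPM in arterial and 7.27, 6.22 and 3.98 in venous libraries (log2 2.31 ± 0.34, adjusted p = 0.00508).

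**Figure D3:**
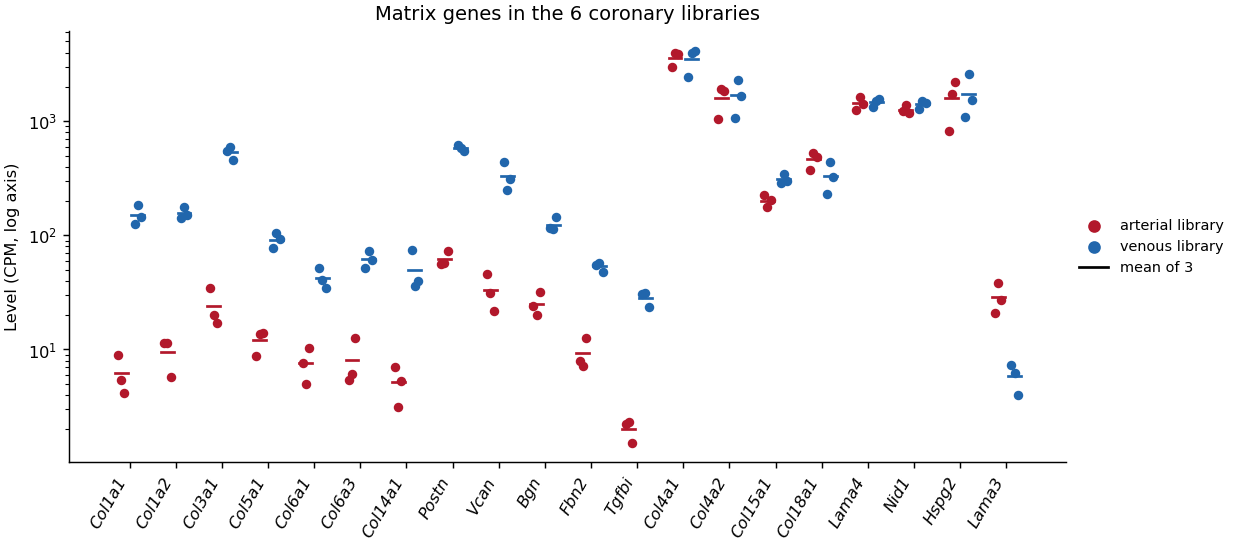
Level of 20 matrix genes (CPM, log axis) in each of the 3 arterial libraries (red points) and 3 venous libraries (blue points), with bars at the mean of each group. From Col1a1 to Tgfbi all venous points lie above all arterial points, the basement membrane genes Col4a1, Col4a2, Lama4, Nid1 and Hspg2 overlap, and Lama3 is the gene with arterial points on top and no overlap.

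Markers of fibroblasts, which make most interstitial collagen, also fell, but their list shares genes with the matrix lists. Of 20 tested fibroblast markers 8 fell and none rose, and their median was -3.17 (-3.16 with Dpep1, a member at 0 in all 3 arterial libraries, set to the level of 3 counts per library). The count was 7 to 9 with any 1 library left out. Of the members that fell, Col1a1, Col1a2 and Col3a1 were already counted as collagens, and Postn and Lum among the glycoproteins and proteoglycans. Only Pdgfra, Dpt and Dpep1 were on neither of these lists. Dpep1 lost its call without arterial replicate 2 or any venous library (adjusted p up to 0.221). Pdgfra, the receptor that marks fibroblasts and their precursors, had 39.6, 32.9 and 26.3 CPM in venous and 2.61, 3.55 and 2.97 in arterial libraries (log2 -3.43 ± 0.30, adjusted p = 0.000155). Lum, the proteoglycan lumican, had 19.5, 14.6 and 14 CPM against 1.57, 0.296 and 0.381 (log2 -4.43 ± 0.60, adjusted p = 0.00304). Dpt, dermatopontin, had 38.8, 35.6 and 32.5 CPM against 2.39, 0.474 and 2.51 (log2 -4.33 ± 0.49, adjusted p = 0.00116, but 0.106 with all 9 libraries in the fit). Dcn, decorin, was at 56.4, 53.7 and 61.4 against 2.76, 6.10 and 0.229 CPM and was not called (log2 -4.21 ± 0.90, adjusted p = 0.159, but 0.00286 in DESeq2). Of the called members, Pdgfra, Lum, Dpt and Dpep1 lay at 3.55 CPM or less in every arterial library. Postn, Col3a1, Col1a2 and Col1a1 lay at 4.19 to 72.9 CPM there. The falls did not separate these members, with log2 -4.48 for Col3a1 and -4.04 for Col1a2 beside -4.33 for Dpt and -3.43 for Pdgfra. The summed level of the list, 8980 to 10000 CPM in arterial and 9470 to 10700 in venous libraries, was carried by Sparc and Vim, which endothelium also expresses. Markers of the epicardium, which covers the heart near the veins, were counted beside them. Of 6 tested epicardial markers Aldh1a2, which makes retinoic acid, fell, from 8.05, 4.21 and 10.6 to 0.821, 0.296 and 0 CPM (log2 -4.33 ± 0.93, adjusted p = 0.0468; 3 members fell in DESeq2). That call did not hold without arterial replicate 2 or venous replicate 1 or 3 (adjusted p up to 0.274), nor with all 9 libraries, a minimum count of 30 or the replicate block (up to 0.0921). The median of the 6 was -1.97, and 5 had an unadjusted p under 0.05, 4 of them lower and Wt1 higher. The factors Tbx18 and Tcf21, the latter also a fibroblast marker, were not called but had all venous above all arterial values (log2 -2.41 ± 0.60 and -3.54 ± 0.94). Wt1 went the other way (0.38 ± 0.15), and the other 8 of the 14 epicardial markers in the table were too low to test. The summed level of the list was 4130 to 5170 CPM in arterial and 2810 to 4630 in venous libraries, most of it from Sparcl1. The part of other cells in the fall of matrix genes was not tested.

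Markers of the endocardium fell as well. Of 21 tested endocardial markers 8 fell and none rose, and their median was -2.03. Their summed level was 447 to 522 CPM in arterial and 785 to 966 in venous libraries, and none was at 0 in a whole group. The count was 3 without venous replicate 3, 4 without venous replicate 1, 5 without arterial replicate 2 or venous replicate 2, and 7 without arterial replicate 1 or 3. Tbx20 (ENSMUSG00000031965; chromosome 9, 24718138 to 24774303, minus strand), a T-box factor of endocardium and heart muscle, had 179, 118 and 116 CPM in venous and 13.1, 14.9 and 15.6 in arterial libraries (log2 -3.24 ± 0.22, adjusted p = 1.75e-05). Cdh11, a cadherin of valve and mesenchymal cells, had 69.5, 38.4 and 43.2 CPM against 9.77, 6.04 and 6.70 (log2 -2.75 ± 0.30, adjusted p = 0.000687). Bmp6, a bone morphogenetic protein, had 21.9, 32.0 and 34.2 CPM against 6.94, 9.71 and 7.47 (log2 -1.87 ± 0.29, adjusted p = 0.00659). Of the 21 markers 19 had a log2 fold change below 0, 13 of the list were not called, and 16 had groups that did not overlap (17.7% of all genes tested). Nfatc1, the endocardial and valve factor, was at 42.5, 57.6 and 54.1 CPM in arterial and 58.9, 59.8 and 57.6 in venous libraries (log2 -0.19, 95% interval -0.59 to 0.20), and Npr3 was lower in all 3 arterial libraries than in any venous one without being called (log2 -0.92 ± 0.30, adjusted p = 0.234).

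The 3 endocardial libraries, scaled together with the 6, place these genes. For 72 of the 110 genes lower in arterial libraries (65.5%) the endocardial mean lay above both coronary means, against 37.8% of all tested genes with a value in the joint scaling. All 3 endocardial libraries lay above all 6 coronary ones for 53 of the 110 (48.2%, against 8.70%). The 86 genes higher in arterial libraries showed the reverse. The endocardial mean lay below both coronary means for 52 of them (60.5%, against 39.4%), and all 3 endocardial libraries lay below all 6 others for 41 (47.7%, against 10.1%). Without endocardial replicate 1, which had 21101 genes above 0 against 17337 and 17130 in the other endocardial libraries, the shares by the mean were 64.5% of the lower genes (against 37.2%) and 62.8% of the higher genes (against 43.7%). These shares use the same arterial and venous libraries that chose the genes and are given without a test.

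Individual genes departed from this order. Tbx20 averaged 136 CPM in venous and 88.0 in endocardial libraries, so that its venous level was the highest of the 3 populations, with ranges of 114 to 177 and 80.1 to 100. Cdh11 instead averaged 49.7 CPM in venous and 997 in endocardial libraries, and Cpe 158 and 1830. Aplnr was lowest in the endocardial libraries, at 43.3 CPM on average beside 155 in arterial and 384 in venous ones. All called venous markers but Aplnr had a higher mean in endocardial than in venous libraries. Nr2f2 averaged 54.8 CPM in venous and 123 in endocardial libraries, with ranges of 49.0 to 63.7 and 113 to 130, and Vcam1 averaged 35.1 and 68.8. Fibroblast and matrix genes differed among themselves. Lum averaged 15.8 CPM in venous and 63.3 in endocardial libraries, Pdgfra 32.4 and 112, and Postn 574 and 1050. The proteoglycan gene Ogn was highest in venous libraries, with means of 28.1 CPM for venous, 1.17 for arterial and 1.02 for endocardial libraries, and Dpt with means of 35.1, 1.75 and 2.53 in that order. Among the arterial genes, Gja5 was as low in endocardial libraries (4.38 CPM on average) as in venous ones (4.40), whereas Gja4 reached 49.2 CPM in endocardial libraries, beside 55.4 in arterial and 7.69 in venous ones. Enpp2 was highest in endocardial libraries, at 72.2 CPM beside 40.3 in arterial and 8.13 in venous ones.

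Signalling genes of the BMP, TGF-beta and Wnt families that passed the test in edgeR were all lower in arterial libraries. DESeq2 called 5 BMP and TGF-beta genes lower and 1 higher, and 7 Wnt genes lower and none higher. Over all tested genes 0.714% fell, and of 39 tested BMP and TGF-beta genes 3 fell, at a median of -0.21. Beside Bmp6 they were Tgfbi, a TGF-beta-induced matrix protein, at 30.8, 31.0 and 23.7 CPM in venous and 2.24, 2.31 and 1.52 in arterial libraries (log2 -3.81 ± 0.33, adjusted p = 0.000130), and Inhba. The activin chain gene Inhba had 8.17, 9.17 and 10.4 against 1.04, 1.3 and 0.0762 CPM (adjusted p = 0.0394) and was called in 1 of the 6 fits with a library left out, that without arterial replicate 3 (adjusted p = 0.0178; 0.0511 to 0.181 in the others). Of 32 tested Wnt pathway genes 3 fell, at a median of -0.19. Sfrp2, a secreted Wnt antagonist, had 18.6, 16.3 and 17.8 CPM in venous and 0.970, 0.474 and 1.75 in arterial libraries (log2 -4.05 ± 0.49, adjusted p = 0.00112, but 0.170 with all 9 libraries in the fit). The ligand genes Wnt9b (3.46, 4.46 and 6.12 against 0.0746, 0.118 and 0.305 CPM, adjusted p = 0.0244) and Wnt4 (12.3, 12.1 and 14.4 against 2.16, 0.770 and 3.58 CPM, adjusted p = 0.0348) were the others. Sfrp2 kept its call with any 1 venous library left out, whereas Wnt9b and Wnt4 lost theirs in each of these 3 fits, with adjusted p up to 0.242 and 0.135. Wnt9b was also lost without arterial replicate 2 (0.0602) and Wnt4 without arterial replicate 1 (0.0572).

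In 4 lists of general, capillary, tip cell and fatty acid genes of endothelium no member was called, which does not set them apart from all tested genes, of which 1.27% were called. Of all 15404 tested genes 1731 had an unadjusted p under 0.05. None of 26 pan-endothelial genes was called by edgeR (4 at an unadjusted p under 0.05, 1 in DESeq2), and their median was 0.04. Cdh5, VE-cadherin, had 1310, 1890 and 1860 CPM in arterial and 1310, 1870 and 1560 in venous libraries (log2 0.09, 95% interval -0.30 to 0.49). None of 20 capillary markers (5 at an unadjusted p under 0.05, 2 in DESeq2, median -0.02) and none of 17 tip cell genes (6 and 2, median 0.08) was called by edgeR. Fabp4, a fatty acid carrier of capillaries, lay at 1440, 1170 and 1320 against 1430, 1310 and 1410 CPM (log2 -0.07, interval -0.38 to 0.23). Of 29 genes of fatty acid uptake and oxidation none was called (1 at an unadjusted p under 0.05, 0 in DESeq2, median -0.08).

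Proliferation genes lay slightly lower in arterial libraries, without a gene that passed the test in edgeR. Of 39 DNA replication genes 38 had a log2 fold change below 0, with a median of -0.43, 13 an unadjusted p under 0.05, and DESeq2 called 2. Their summed level was 1840 to 2150 CPM in arterial and 2400 to 2770 in venous libraries, without overlap. Of 39 mitosis genes 37 lay below 0 (median -0.35, 8 at an unadjusted p under 0.05, 0 in DESeq2). Mki67, a marker of cycling cells, had 1930, 1210 and 1300 CPM in arterial and 1910, 1620 and 2380 in venous libraries (log2 -0.42 ± 0.20, adjusted p = 0.487). All 12 tested mitochondrially encoded genes also lay below 0 (median -0.42, none called by edgeR, 5 at an unadjusted p under 0.05, 3 in DESeq2). Immediate-early genes leaned to the arterial side, 23 of 26 above 0 with a median of 0.32 and none called (3 at an unadjusted p under 0.05, 0 in DESeq2). Over all 15404 tested genes the median was 0.02, and 1731 had an unadjusted p under 0.05. Members of these lists vary together across libraries, so that such counts of signs are not independent observations.

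**Figure D4:**
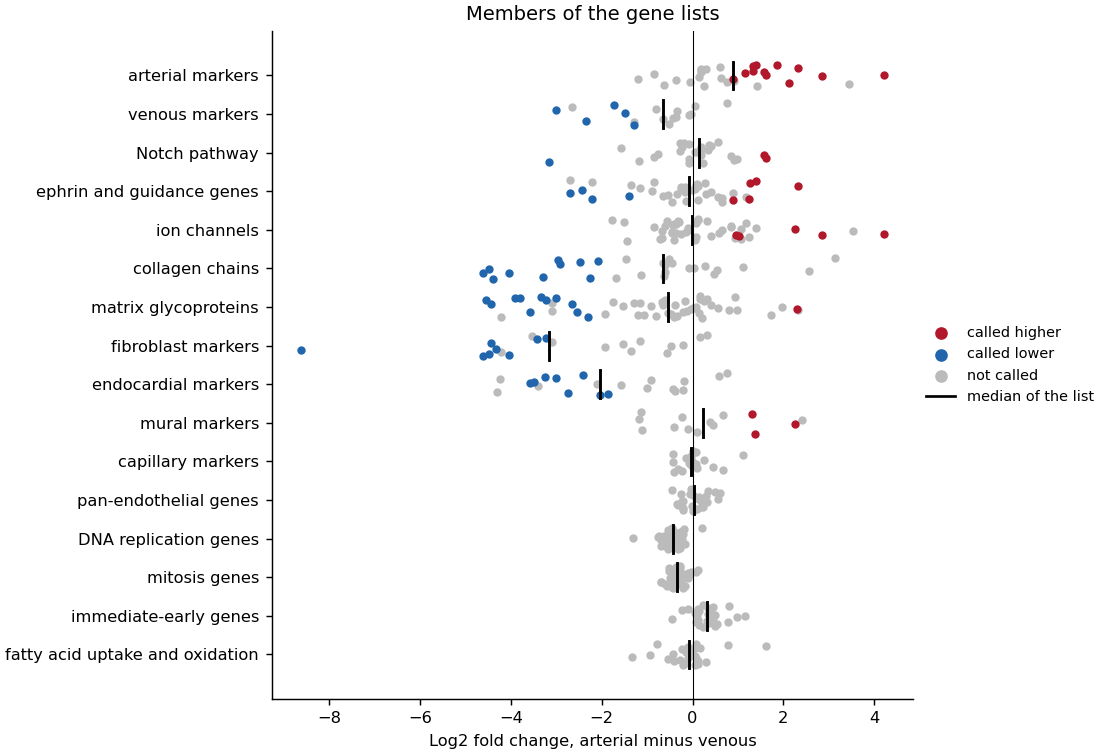
Log2 fold change, arterial minus venous, of every tested member of 16 gene lists. Each point is a gene, red if called higher, blue if called lower and grey if not called, and the black bar is the median of the list, which lies at 0.90 for arterial markers, at -3.17 for fibroblast markers and near 0 for pan-endothelial and capillary genes.

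Of 4 tested neural markers Stmn2, a regulator of microtubules, rose from 18.4, 11.6 and 18.2 to 39.7, 33.2 and 49.3 CPM (adjusted p = 0.0263), and was lost without arterial replicate 3 or any venous library (adjusted p up to 0.0953). Stmn2 was also counted among the 12 arterial markers that rose. The median of the 4 neural markers was 1.00, the summed level of all 14 listed was 46.1 to 59.6 CPM in arterial and 15.8 to 26.7 in venous libraries, and 10 were too low to test. Among 19 cardiomyocyte markers Actc1 fell, from 59.4, 88.3 and 74.1 to 36.9, 37.1 and 24.9 CPM (adjusted p = 0.0251), and was lost without arterial replicate 2 or 3 or venous replicate 2 or 3 (adjusted p up to 0.105). None of the 19 lay above 0, and the summed level was 480 to 640 CPM in arterial and 644 to 837 in venous libraries. Among 10 tested erythroid and platelet markers the globin genes Hba-a2 and Hbb-bt rose, and the summed level was 565 to 1240 CPM in arterial and 238 to 395 in venous libraries. Near-identical globin genes share reads, which RSEM divides between them. Hbb-bt had 190, 131 and 94.7 against 54.4, 47.0 and 49.5 CPM (log2 1.46 ± 0.23, adjusted p = 0.00829; 0.0528 without venous replicate 3), and Hba-a2 was lost without venous replicate 2 or 3 (adjusted p up to 0.213). Of 7 tested leukocyte markers Laptm5 rose (log2 2.71 ± 0.51, adjusted p = 0.0223), and was lost without arterial replicate 2 or any venous library (adjusted p up to 0.130). None of 11 lymphatic markers was called (4 at an unadjusted p under 0.05, 1 in DESeq2, median -0.90).

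The choice of tool and of libraries moved both the number of genes called and the balance of their directions. More calls were lower than higher in the fit reported. The reverse held in DESeq2, without the filter and without arterial replicate 2 (55.7% of 201 calls higher). DESeq2 called 551 genes, 58.6% of them higher in arterial libraries, and edgeR without the filter for low counts 630, 58.4% of them higher, against 43.9% in the fit reported and 29.0% of 183 genes with all 9 libraries in the fit. All 196 genes were among the calls of DESeq2, and 69 of them (21 higher, 48 lower) were called under every alternative, among them Gja5, Gja4, Cxcr4, Jag1, Hey1, Nr2f2, Aplnr, Tbx20, Col1a1 and Postn. With all 9 libraries in the fit, the calls of Prdm16 (adjusted p = 0.657), Sema7a (0.518), Meox1 (0.219), Rgs5 (0.0544), Hba-a2 (0.708), Hbb-bt (0.751), Laptm5 (0.132) and Dpep1 (0.103) were lost as well.

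**Figure D5:**
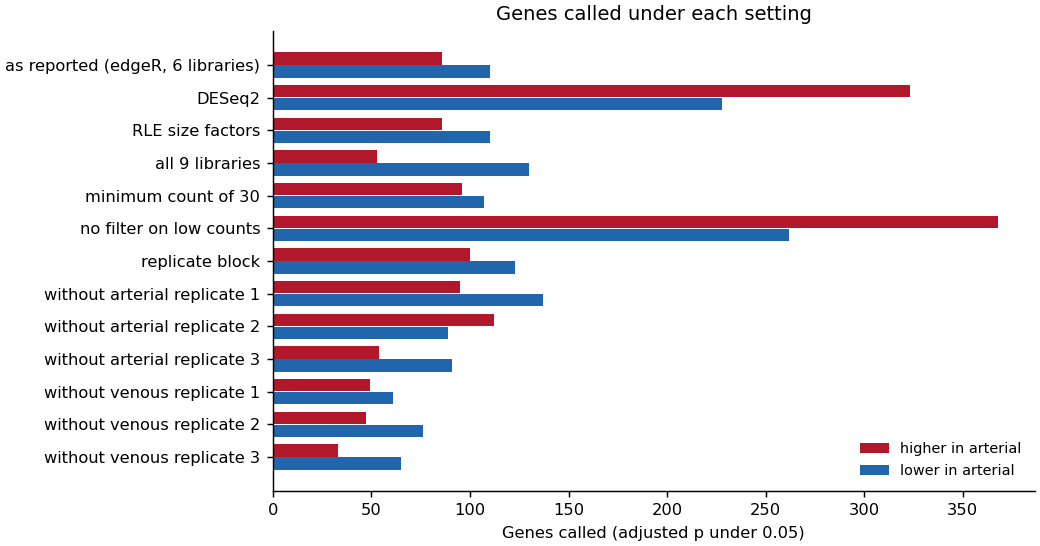
Number of genes called higher (red bars) and lower (blue bars) in arterial libraries at an adjusted p under 0.05, for the fit reported and 12 alternatives. DESeq2 and the fit without a filter give the most calls, 551 and 630, and the fit without venous replicate 3 the fewest, 98.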

How the data were processed

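The authors deposited a table of expected counts per gene from RSEM 1.2.3, with GRCm38 and Ensembl release 76 as reference. CASAVA 1.8.2 and cutadapt 1.3 came before it, per the submitters' processing notes. The labels name 2 library kits, NEBNext Ultra and NuGEN Ovation for single cells with 1 ng of RNA, and which one was used is not given in the sources used here, nor are the aligner and the strandedness. Of values above 0, 45.5% were not whole, and all were rounded. Of 41214 features, 40254 (97.67%) matched a symbol.

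The 6 arterial and venous libraries were fitted alone (common dispersion 0.227, against 0.409 with all 9 libraries and 17103 genes). The test was the quasi-likelihood F test of edgeR 4.0.16 in R 4.3.3, robust, with TMM scaling and a minimum count of 10, and calls were made at 0.05 after Benjamini-Hochberg adjustment over 15404 genes. The SE is the size of the log2 fold change over the square root of F. The method was tested on simulated data. DESeq2 1.42.0, other scaling and filters, all 9 libraries, a replicate block and each library left out were the alternatives.

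The batch number in the labels equals the replicate number and pairs the samples. Deviations from the group means correlated at 0.102, 0.077 and -0.109 between libraries of numbers 1, 2 and 3. Between arterial and venous libraries of unlike numbers these correlations ran from -0.184 to 0.128, so libraries of the same number were not more alike. No 2 libraries held identical values.

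Members and the 40 gene lists were chosen with earlier results of these data known. Named genes were the markers of the populations, the called genes without overlap with the largest changes at a mean log2 CPM of at least 4 (12 each way) or the largest CPM differences (8 each way), up to 4 members per list with the smallest p, and a set of fixed genes. Predicted genes, pseudogenes, Xist and genes of the Y chromosome were left out of the sets ranked by change or CPM difference. Genes printed outside this rule were chosen after their values were seen. They are Gpc4, Cd44, Apoe, Lum, Ogn, Dcn, Dpep1, Igfbp3, Unc5b, Sema7a, Prdm16, Meox1, Clic5, Plvap, the collagen VI and basement membrane genes, the marker genes given as not called, and those of the closing section other than Odc1, Atp13a3 and Sat1. The ETS and GATA motifs were added in the same way. Coordinates are from GENCODE release 21 for mouse, and promoters from RefSeq (GRCm38.p6).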

Additional observations from a re-analysis of the deposited data

How the results depend on the processing

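The number of calls depended most on the tool, on the filter and on the venous libraries. DESeq2 called 551 genes (323 higher, 228 lower) and edgeR without a filter for low counts 630 (368 and 262), where the median of all genes also moved from 0.02 to 0.14. With all 9 libraries in the fit 183 genes were called, 53 of them higher. Leaving out 1 library gave 98 to 232 calls, 33 to 112 higher and 61 to 137 lower, with the fewest higher and the fewest of all without venous replicate 3 and the fewest lower without venous replicate 1. The cause was not tested. Scaling by RLE size factors left the counts at 86 and 110, and a minimum count of 30 gave 96 and 107.

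The fit with the replicate number as a block, which pairs the libraries by the labels' batch, called 223 genes (100 higher, 123 lower) and 184 of the 196. Among the genes named in the text the block changed the calls of Cxcl12 (gained), Meg3 (gained, adjusted p = 0.0265) Dpep1 (lost, 0.0860) and Aldh1a2 (lost, 0.0626), and no other.

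The called genes named in the text kept their sign in all alternatives. A sign change was seen in 10 genes, none of them called. With a library left out in turn the log2 fold change ran from -0.14 to 0.28 for Acta2, -0.04 to 0.24 for Cdh5, -0.18 to 0.14 for Col4a1, -0.33 to 0.20 for Col4a2, -0.41 to 0.24 for Cspg4, -0.44 to 0.27 for Hspg2, -0.16 to 0.08 for Igf2, -0.17 to 0.05 for Lama4, -0.01 to 0.44 for Notch1 and -0.01 to 0.40 for Notch4. Without the filter Col4a1 lay at 0.00.

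Intervals set the limit of what was not called. For 43.5% of the tested genes the 95% interval of the fold change lay within 2-fold both ways, and the median width was 1.57 on the log2 scale. With 3 libraries a group, an arterial library that correlated better with venous ones, and gates set by nestin transgenes, a gene without a call is not shown to be equal.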

Other observations

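Among the genes with the largest CPM differences, 3 act on polyamines. Odc1, the rate-limiting enzyme of polyamine synthesis, had 613, 660 and 694 CPM in venous and 338, 279 and 237 in arterial libraries (log2 -1.20 ± 0.16, adjusted p = 0.00275), without overlap and with the call kept in every alternative. Atp13a3, a polyamine transporter, had 238, 289 and 302 CPM in arterial and 134, 130 and 118 in venous libraries (log2 1.12 ± 0.16, adjusted p = 0.00355). Sat1, which acetylates polyamines for export, rose by log2 1.51 ± 0.29 (adjusted p = 0.0411) and was lost without arterial replicate 1 or 3 or venous replicate 2 or 3 (adjusted p up to 0.187) and with all 9 libraries in the fit (0.0513). Amd1, an enzyme of polyamine synthesis chosen after its values were seen, rose by log2 0.87 ± 0.18 (adjusted p = 0.0391), and was lost in 5 of the 6 fits that left out a library, all but the one without arterial replicate 1 (adjusted p up to 0.273), and with all 9 libraries (0.132). No list of such genes was tested, and the genes given here are not a full account of the called genes that bear on polyamines.

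At the imprinted Dlk1 locus the maternally expressed RNA Rian fell with Dlk1, which is expressed from the paternal allele. Rian had 72.9, 50.6 and 49.5 CPM in venous and 16.0, 11.5 and 22.7 in arterial libraries (log2 -1.78 ± 0.27, adjusted p = 0.00659). Meg3 of the same locus was not called (log2 -1.32 ± 0.36, adjusted p = 0.136). The imprinted H19 and Igf2 were abundant and even, with log2 fold changes of -0.18 (95% interval -0.46 to 0.11) and -0.04 (-0.37 to 0.29).

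How often neighbours among all tested genes moved alike was not counted, so the pairs given here are only a description. Within 100000 bases of each other lay 6 pairs of called genes, and 5 of these pairs moved in the same direction. They were Kcnj8 with Abcc9, Col6a2 with Col6a1, Abca8a with Abca9, Aspn with Ogn and Hapln1 with Vcan. Sorbs2, higher in arterial libraries, and Pdlim3, lower in them, formed the pair that moved apart, 57555 bases from each other on chromosome 8. The call of Abca9 was lost without arterial replicate 1 or 2 or any venous library (adjusted p up to 0.114), and that of Aspn without arterial replicate 3 or venous replicate 1 (up to 0.0541). Hapln1 was lost without any 1 arterial library or venous replicate 3 (up to 0.188), Sorbs2 without arterial replicate 2 or venous replicate 2 or 3 (up to 0.109) and Abcc9 without venous replicate 1 or 3 (up to 0.0992), while Kcnj8, Col6a1, Col6a2, Abca8a, Ogn, Vcan and Pdlim3 kept theirs. Pdlim3, a muscle LIM protein, had 64.8, 44.6 and 49.2 CPM in venous and 4.92, 9.36 and 6.09 in arterial libraries.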
